A study of Homo sapiens with 18 samples.

Results

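The glycolysis and hypoxia-induced genes are 39 genes chosen by symbol, and all 39 stand among the 27130 gene symbols of the count tables. They comprise 25 genes of glucose use, called glycolytic here (4 transporters, 17 enzymes and 4 switches of flux), and 14 other genes that are induced when oxygen is low. Polyadenylated RNA was sequenced in 18 libraries from the human embryonic stem cell lines H1 and H9, both established lines, and from clones of them in which Cas9 had cut ZNF263, which encodes a transcription factor with zinc fingers. The study asked what ZNF263 does in pluripotent cells. There were 5 replicated groups of 3 libraries, namely wild-type H1, its clone 1-10 (homozygous knockout), wild-type H9, and its clones 9-1 and 9-D (both homozygous knockouts). From H1 there was also an unreplicated set, with a single library for wild type, for clone 1-5 (heterozygous knockout) and for clone 1-10. Every knockout group is a single clone, so an effect of the gene and a property of the clone cannot be told apart within a group. The labels give no treatment, oxygen level or passage, and leave out where in ZNF263 the cut lies, whether replicates came from separate cultures, and whether both lines were handled together. The p-values therefore measure the spread between these libraries, which may be technical.

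Glycolysis splits glucose into pyruvate, and lactate dehydrogenase turns pyruvate into lactate, which leaves the cell. Human embryonic stem cells of the primed kind are known to rely strongly on this route. When oxygen falls, the prolyl hydroxylases of the EGLN family no longer mark HIF-alpha proteins for destruction by VHL. HIF-alpha then pairs with ARNT at short hypoxia response elements and raises transcription of glucose transporters, most glycolytic enzymes, PDK1, and genes such as BNIP3, VEGFA, ADM and EGLN3. HIF-alpha is controlled mainly as a protein, so its RNA says little about its activity.

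Library totals were 9.66 to 21 M counts. ZNF263 itself was at 39.6 to 42 CPM (counts scaled to library size, with TMM factors, within a line) in the 3 H1 wild-type libraries and at 32.3 to 36.1 in clone 1-10. It was at 39.9 to 44.4 in H9 wild type, 34.4 to 37.4 in clone 9-1 and 35.3 to 37.8 in clone 9-D. These falls, of 1.21-, 1.18- and 1.17-fold, passed the quasi-likelihood test of edgeR, with p-values adjusted over all genes by Benjamini and Hochberg (adjusted p = 0.0156, 0.0157 and 0.0204), but each call was lost on leaving out one of 2 to 4 single libraries (highest adjusted p = 0.0971, 0.0904 and 0.0851). RNA that an edited allele still makes is counted, so these levels do not measure the protein. All 10 pluripotency markers examined, such as POU5F1, NANOG and SOX2, were detected in every group, at summed levels of 8830 to 10800 CPM.

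In H1 clone 1-10, 8 of 13 other hypoxia-induced members tested, 2 of 4 transporters and 3 of 4 switches were lower than in wild type, while 15 of 17 enzymes did not pass the test. Of the 38 members tested, 14 were lower and 1 was higher at an adjusted p under 0.05, against 7.25% and 5.01% of the 14897 genes tested. CA9, a carbonic anhydrase and a standard hypoxia marker, held 20 counts in either group over 3 libraries and was too low to test. The 13 other hypoxia-induced members tested had 8 lower and 0 higher by edgeR (0 also by DESeq2 and at an unadjusted p under 0.05), with a median log2 fold change of -0.43. The 17 enzymes had 1 lower and 1 higher, with a median of -0.07. The median over all genes was 0.00. Here as in every comparison below, fewer cells of a kind and less RNA per cell cannot be told apart in bulk RNA. The plot of log2 CPM by library shows that the wild-type libraries also differed among themselves.

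**Figure D1:**
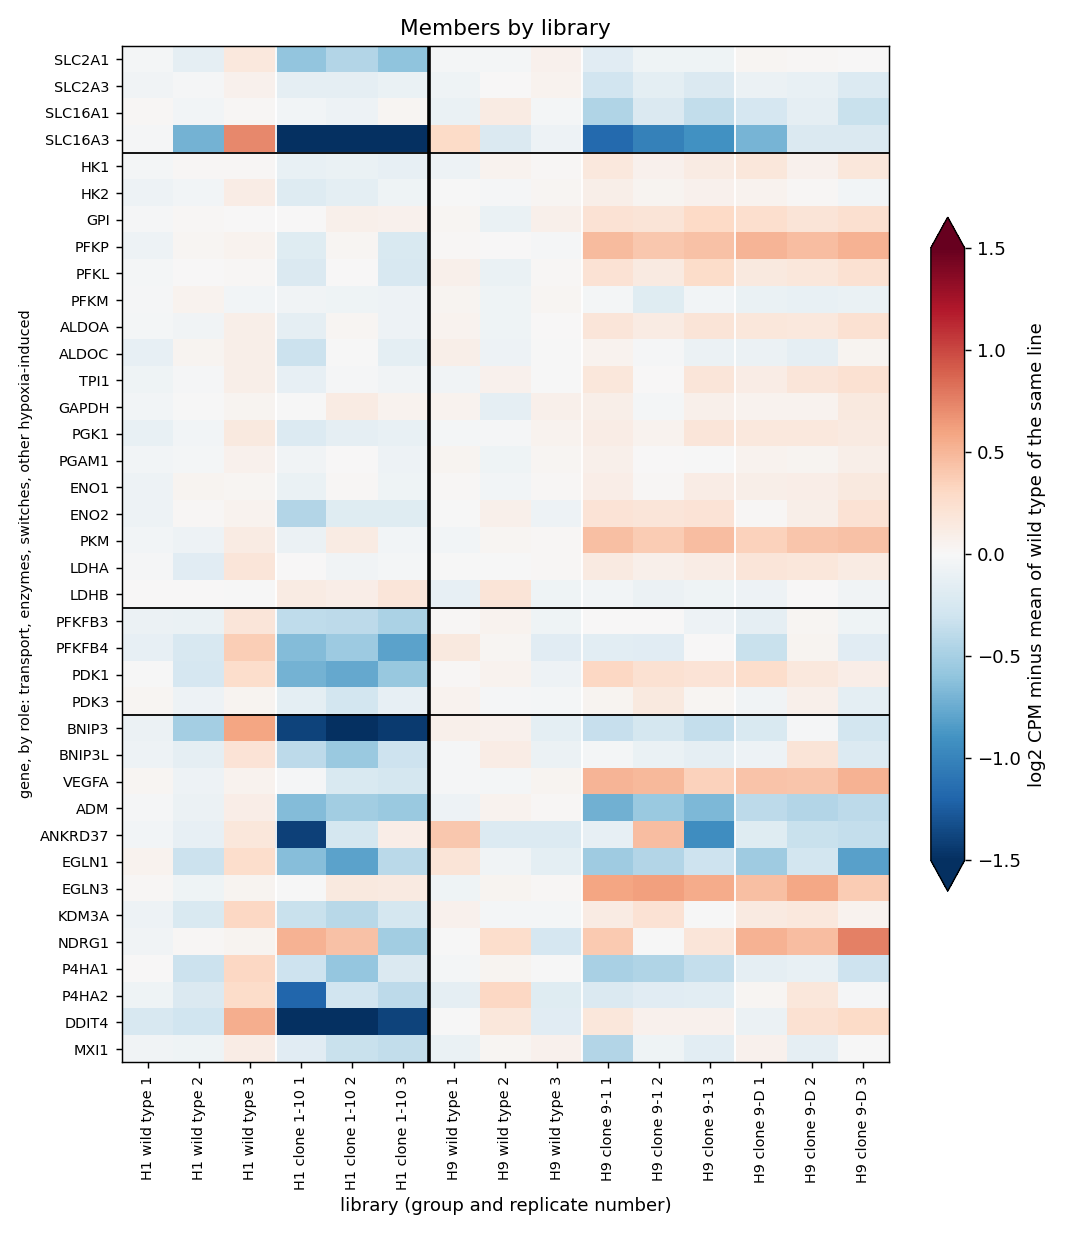
Log2 CPM of 38 members (rows, by role) in each of 15 libraries (columns) minus the mean of the wild-type libraries of the same line; colours saturate at 1.5, and CA9 is left out. SLC16A3, BNIP3 and DDIT4 are dark blue in all 3 libraries of H1 clone 1-10, and PFKP, PKM, VEGFA and EGLN3 are red in all 6 libraries of the H9 clones.

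The largest falls among the hypoxia-induced members were those of DDIT4 and BNIP3. BNIP3 is a receptor on mitochondria that directs them to autophagy, and its promoter is a known HIF target. Its sequence and that of DDIT4, an inhibitor of mTOR signalling, are shown because these 2 members fell most in H1 outside transport. They span the 250 bases before the gene start in RefSeq GRCh38.p14, at chr10:131981924-131982173 (minus strand) for BNIP3 and chr10:72273674-72273923 (plus strand) for DDIT4, written 5′ to 3′ on the gene's strand. Capitals mark the core of the hypoxia response element, ACGTG or GCGTG, on either strand (CACGT or CACGC when read on the other one).
BNIP3: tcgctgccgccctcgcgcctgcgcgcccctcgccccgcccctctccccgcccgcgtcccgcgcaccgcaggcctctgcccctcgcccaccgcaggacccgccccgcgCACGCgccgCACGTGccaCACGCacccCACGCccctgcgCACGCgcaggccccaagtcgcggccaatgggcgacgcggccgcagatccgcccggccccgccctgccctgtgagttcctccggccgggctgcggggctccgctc
DDIT4: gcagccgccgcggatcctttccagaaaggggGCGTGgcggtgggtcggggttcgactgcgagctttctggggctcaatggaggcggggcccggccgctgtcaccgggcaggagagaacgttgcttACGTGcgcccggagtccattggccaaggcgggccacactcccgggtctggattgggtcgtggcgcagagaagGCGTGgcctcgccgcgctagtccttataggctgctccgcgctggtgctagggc
The BNIP3 window held 5 separate stretches with the core and that of DDIT4 held 3.

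BNIP3 was at 56, 41.6 and 89.8 CPM in H1 wild-type replicates 1, 2 and 3, and at 22.6, 20.6 and 21.9 in clone 1-10. The groups did not overlap, and the wild-type libraries spread over more than the gap between the groups. The log2 fold change was -1.53 ± 0.15 (SE, 3 against 3 libraries, edgeR adjusted p = 6.29e-09). DDIT4 was at 65.6, 63.1 and 113 CPM in wild type and at 26.8, 27.1 and 29.5 in clone 1-10, with wild-type replicate 3 again the highest. Its log2 fold change was -1.54 ± 0.13 (edgeR adjusted p = 2.16e-10). BNIP3L, a second mitophagy receptor, fell by 0.43 on the log2 scale (edgeR adjusted p = 0.000469), from 53 ± 6.95 to 39.5 ± 3.33 CPM (SD, n = 3).

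EGLN1 and ADM were also lower in clone 1-10. EGLN1, the main prolyl hydroxylase of HIF-alpha, was at 27.8, 21.3 and 32.2 CPM in wild type and at 17.1, 15.3 and 20.2 in clone 1-10. Every clone library lay below every wild-type library, and the log2 fold change was -0.65 ± 0.12 (SE, edgeR adjusted p = 0.000224). ADM, which encodes the vessel-dilating peptide adrenomedullin, was at 86.2, 82.3 and 93.7 CPM in wild type and at 55.3, 60.9 and 59.3 in clone 1-10. This difference was several times the spread within either group, with a log2 fold change of -0.58 ± 0.07 (edgeR adjusted p = 9.62e-08). EGLN1 and ADM were the 2 members called lower in all 3 knockout clones. Of all genes, 7.25% were lower in 1-10, 13.5% in 9-1 and 12% in 9-D, and the share lower in all 3 was not counted. The promoters of EGLN1 and ADM are shown for that reason in the same form, at chr1:231422288-231422537 (minus strand) and chr11:10304823-10305072 (plus strand).
EGLN1: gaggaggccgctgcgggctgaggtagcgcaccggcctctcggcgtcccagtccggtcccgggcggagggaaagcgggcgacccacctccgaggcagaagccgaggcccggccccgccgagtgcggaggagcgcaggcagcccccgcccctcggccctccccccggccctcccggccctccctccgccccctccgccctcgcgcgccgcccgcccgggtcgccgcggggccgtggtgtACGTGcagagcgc
ADM: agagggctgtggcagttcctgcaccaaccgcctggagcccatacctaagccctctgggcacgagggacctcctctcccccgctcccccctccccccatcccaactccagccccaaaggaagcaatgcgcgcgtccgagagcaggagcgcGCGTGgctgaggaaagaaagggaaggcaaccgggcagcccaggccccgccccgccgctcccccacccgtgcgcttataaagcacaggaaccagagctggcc
Each held 1 stretch with the core, 13 bases before the gene start in EGLN1 and 101 bases before it in ADM.

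The remaining calls among hypoxia-induced members in H1 were weaker. P4HA2, a catalytic subunit of the enzyme that hydroxylates proline in collagen, was at 5.84, 5.24 and 7.42 CPM in wild type and at 2.6, 4.97 and 4.62 in clone 1-10, a log2 fold change of -0.61 ± 0.20 (edgeR adjusted p = 0.0397). Its sister P4HA1 was at 36.1, 28.6 and 44.5 CPM in wild type and at 28.9, 23.9 and 30.9 in clone 1-10. These groups overlap, and P4HA1 fell by 0.39 (SE 0.11, edgeR adjusted p = 0.0156). KDM3A, a histone demethylase, fell by 0.36 (edgeR adjusted p = 0.00934). The 5 members not called were VEGFA, the vessel growth factor; EGLN3, a prolyl hydroxylase; NDRG1, a stress-response gene; MXI1, a MYC antagonist; and ANKRD37, with log2 fold changes from -0.54 (ANKRD37, 45 and 31 counts over 3 libraries) to 0.30 (NDRG1).

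Part of this pattern rested on wild-type replicate 3. It was the highest of the 3 wild-type libraries for 13 of 13 tested hypoxia-induced members and for 20 of 25 glycolytic members, against 31.2% of all genes, and replicate 2 was the lowest for 12 of those 13. The hypoxia-induced members also varied more between wild-type libraries (median coefficient of variation 13.1%) than all genes did (6.82%). Without wild-type replicate 3, 5 of the 8 calls remained, those of DDIT4, BNIP3, BNIP3L, EGLN1 and ADM. KDM3A, P4HA1 and P4HA2 were lost (edgeR adjusted p = 0.216, 0.252 and 0.238), and DESeq2 on all 6 libraries also left them out (adjusted p = 0.185, 0.286 and 0.106). P4HA1 was further lost without clone 1-10 replicate 2 (adjusted p = 0.0796) and P4HA2 without its replicate 1 (0.303). Calls were lost outside these members too. Over all genes, leaving out 1 H1 library at a time gave 665 to 1197 called lower, against 1080 with all. What set replicate 3 apart was not tested.

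Transport of glucose and lactate changed at 2 of 4 genes in H1. SLC16A3 (MCT4), the exporter of lactate typical of highly glycolytic cells, was at 9.27, 5.69 and 15.6 CPM in wild type and at 1.08, 1.33 and 1.05 in clone 1-10, from 420 counts over 3 libraries to 50. This was the largest change of any member, with a log2 fold change of -3.10 ± 0.29 (SE, edgeR adjusted p = 1.77e-09). SLC2A1 (GLUT1), the main glucose importer, was at 422, 390 and 480 CPM in wild type and at 284, 316 and 283 in clone 1-10. The groups were apart, and the log2 fold change was -0.55 ± 0.06 (edgeR adjusted p = 3.61e-08). SLC2A3 (GLUT3), with a log2 fold change of -0.12 (adjusted p = 0.0537), and SLC16A1 (MCT1), at -0.03, were not called.

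Of the 4 switches, 3 were lower in H1 clone 1-10. PDK1, the kinase that shuts pyruvate dehydrogenase and so keeps pyruvate out of mitochondrial oxidation, was at 50.8, 42.6 and 61 CPM in wild type and at 31.1, 29.9 and 34.4 in clone 1-10. Its log2 fold change was -0.70 ± 0.09 (SE, edgeR adjusted p = 2.1e-06). PFKFB4, which sets the level of an activator of phosphofructokinase, was at 25.2, 23.1 and 35.4 CPM in wild type and at 17.3, 18.7 and 15.6 in clone 1-10, a log2 fold change of -0.68 ± 0.12 (edgeR adjusted p = 0.000113). For both genes every clone library lay below the lowest wild-type library. PFKFB3, of the same family, fell by 0.42 (edgeR adjusted p = 9.11e-05), and PDK3 had a log2 fold change of -0.19 (adjusted p = 0.0587).

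Among the 17 enzymes in H1, ENO2, an enolase, fell by 0.27 on the log2 scale (edgeR adjusted p = 0.00627) and LDHB, a subunit of lactate dehydrogenase, rose by 0.14 (adjusted p = 0.0214). The other 15, which include HK1 and HK2 (hexokinases), GAPDH, PGK1, PKM (pyruvate kinase) and LDHA, had log2 fold changes from -0.15 to 0.06 with SEs of 0.04 to 0.08. Their 95% intervals all lay between -0.31 and 0.14. ENO2 was lost without wild-type replicate 3 or clone 1-10 replicate 1 (adjusted p = 0.0528 and 0.106). LDHB was lost without any one of 4 libraries, replicates 1 and 3 of either group (adjusted p = 0.0574 to 0.118). Without clone 1-10 replicate 2, the count of lower glycolytic members was 11 in place of 6, and without both libraries numbered 2 (wild type and clone) it was 16. In the latter case the enzymes HK1, HK2, PFKP, PFKL, ALDOA, ALDOC, PGK1 and PKM were among those called lower (edgeR adjusted p = 0.000873 to 0.036).

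Counting members whose 3 clone libraries all lay below the 3 wild-type libraries gave 19 of 38 in H1, against 15.1% of all genes, and 1 of 38 lay above (14.3% of all genes). Some markers of other cell types were also lower in clone 1-10, beside 7.25% of all genes lower and 5.01% higher. Of 6 markers of primitive streak and mesendoderm, 5 were tested and all 5 were lower in clone 1-10, with summed levels of 25.3 to 27.8 CPM in wild type and 4.19 to 11 in the clone. Of 10 neuroectoderm markers 6 were lower (sums of 436 to 463 and 418 to 449 CPM), and of 12 fibroblast and feeder markers 5 of 9 tested were lower (879 to 933 and 814 to 967). The sums of these last lists overlapped between wild type and clone, but NES made up most of the neuroectoderm sum. NES was at 389 to 399 CPM in wild type and at 403 to 430 in the clone. DLK1 was at 19.6, 28.8 and 23.8 CPM in wild type and at 3.24, 3.64 and 5.67 in the clone. PAX6, SIX3, RAX, LHX2, OTX1 and HES5 also lay wholly lower in the clone, while SOX1 and ZIC1 overlapped. Lower too were 1 of 4 endoderm markers and 1 of 1 trophoblast and amnion marker tested. In the other direction, 1 of 3 mesoderm markers tested and 2 of 10 pluripotency markers were higher, with 0 lower. Their part in the result was not tested.

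**Figure D2:**
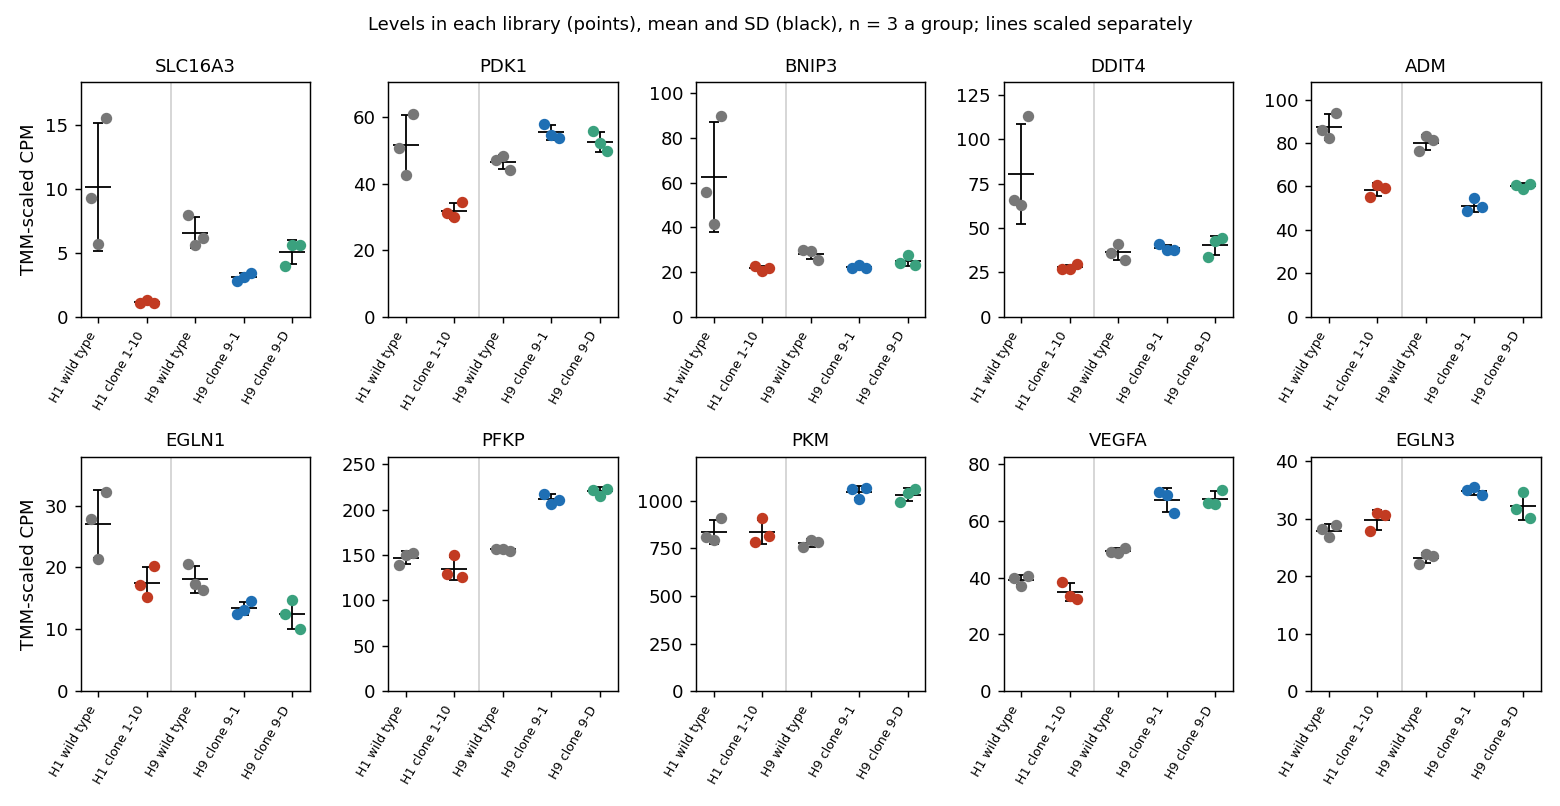
TMM-scaled CPM of 10 members in each of 15 libraries (points), with mean and SD (black, n = 3 a group); the 2 lines were scaled separately. BNIP3 and DDIT4 are spread widely in H1 wild type and lie lower in clone 1-10, ADM and EGLN1 are lower in all 3 clones, and PFKP, PKM, VEGFA and EGLN3 are higher in both H9 clones.

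In the H9 clones the calls among enzymes were higher, at 6 of 17 in 9-1 and 8 of 17 in 9-D, the calls among transporters were lower, at 3 of 4 and 1 of 4, and those among hypoxia-induced members went both ways. In clone 9-1, 9 of 37 members tested were higher and 7 lower, against 12.8% and 13.5% of 15411 genes. In clone 9-D, 11 were higher and 3 lower, against 11.5% and 12%. The enzymes had 0 lower by edgeR in either clone, and their median log2 fold changes were 0.11 and 0.13 beside -0.00 and -0.01 over all genes. Lower enzymes were also 0 by DESeq2 and at an unadjusted p under 0.05. CA9 and ANKRD37 were too low to test in H9. Both clones were compared with the same wild-type libraries, so their values are given side by side and are not independent.

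PFKP, the platelet form of phosphofructokinase, the enzyme of the committed step, had the largest fold change of any enzyme in both clones. It was at 157, 157 and 154 CPM in H9 wild type, at 217, 206 and 211 in 9-1 and at 222, 215 and 223 in 9-D. All 6 clone libraries lay above all wild-type ones, with log2 fold changes of 0.44 ± 0.06 and 0.50 ± 0.06 (SE, edgeR adjusted p = 8.08e-08 and 5.44e-09). PKM, which makes pyruvate, was at 755, 796 and 785 CPM in wild type, at 1060, 1010 and 1070 in 9-1 and at 993, 1040 and 1060 in 9-D. The rises were again without overlap, 0.43 ± 0.05 and 0.40 ± 0.05 (edgeR adjusted p = 5.55e-08 and 2.05e-07). The promoters of PFKP, at chr10:3067720-3067969 (plus strand), and of EGLN3, at chr14:33951075-33951324 (minus strand), are shown as those of the enzyme and the hypoxia-induced member with the largest rises in 9-1. Neither window holds the core, but GPI, PFKL and ALDOA, which also rose in both clones, have it, and SLC16A3, PDK1 and SLC2A1, which fell in H1, do not.
PFKP: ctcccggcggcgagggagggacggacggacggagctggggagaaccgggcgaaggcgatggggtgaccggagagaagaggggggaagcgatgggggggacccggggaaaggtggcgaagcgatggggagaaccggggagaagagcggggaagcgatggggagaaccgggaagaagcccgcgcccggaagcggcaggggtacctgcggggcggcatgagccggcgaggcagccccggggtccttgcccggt
EGLN3: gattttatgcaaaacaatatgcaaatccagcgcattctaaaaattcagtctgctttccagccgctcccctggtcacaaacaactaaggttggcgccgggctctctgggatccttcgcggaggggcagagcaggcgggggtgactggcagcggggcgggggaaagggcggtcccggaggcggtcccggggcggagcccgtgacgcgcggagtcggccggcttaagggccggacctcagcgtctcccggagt
Both are therefore wholly in lower case.

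Smaller rises were seen at other steps of the pathway. GPI (glucose-6-phosphate isomerase, the step after hexokinase) rose by 0.24 in 9-1 and by 0.23 in 9-D on the log2 scale (edgeR adjusted p = 0.00159 and 0.00261). PFKL, the liver form of phosphofructokinase, rose by 0.21 and 0.18, and ALDOA, an aldolase, by 0.17 and 0.19. ENO2 rose by 0.20 in 9-1 (edgeR adjusted p = 0.0138). TPI1 (triose phosphate isomerase), LDHA and PGK1 (phosphoglycerate kinase) rose in 9-D by 0.17, 0.16 and 0.15. The enzymes not called had log2 fold changes of -0.09 to 0.12 in 9-1 and of -0.11 to 0.13 in 9-D.

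The rises of PFKP, PKM and GPI passed the test whichever single library was left out, in both clones, as did that of ALDOA in 9-D. Without wild-type replicate 3 the count of higher glycolytic members was 4 in 9-1 (of 7) and 4 in 9-D (of 8), and without wild-type replicate 1 it was 5 in 9-D. In 9-1, PFKL was lost without wild-type replicate 2 or clone replicate 3 (adjusted p = 0.0794 and 0.072), ALDOA without wild-type replicate 2 or 3 or clone replicate 3 (0.0822, 0.0539 and 0.0766), and ENO2 without wild-type replicate 3 (0.115). In 9-D, PFKL (wild-type 2 or 3, or clone 3), TPI1 (wild-type 1 or 3, or clone 2 or 3), LDHA (wild-type 1 or 3, or clone 1 or 2) and PGK1 (any wild-type library, or clone 1 or 2) were each lost, at adjusted p from 0.0516 to 0.151.

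Of the lactate transporters, SLC16A1 was lower in both H9 clones and SLC16A3 was called in 9-1. SLC16A3 was at 7.98, 5.61 and 6.17 CPM in wild type, at 2.83, 3.15 and 3.41 in 9-1 and at 3.96, 5.6 and 5.59 in 9-D. Clone 9-1 lay wholly below wild type, with a log2 fold change of -1.07 ± 0.18 (SE, edgeR adjusted p = 2.24e-05). In 9-D the log2 fold change was -0.39 and did not pass the test (adjusted p = 0.0932). SLC16A1, a lactate and pyruvate carrier, was at 948, 1100 and 994 CPM in wild type, at 739, 875 and 783 in 9-1 and at 852, 922 and 803 in 9-D, log2 fold changes of -0.34 ± 0.06 and -0.24 ± 0.06 (edgeR adjusted p = 5.97e-05 and 0.00417). SLC2A3 fell by 0.22 in 9-1 (edgeR adjusted p = 0.00276) and was at -0.14 in 9-D (0.0609). SLC2A1 had log2 fold changes of -0.10 and 0.01 and was not called. Among the switches, PDK1 was at 47.2, 48.3 and 44.1 CPM in wild type and at 57.8, 54.5 and 53.7 in 9-1, a rise of 0.25 (adjusted p = 0.00612) that was lost without wild-type replicate 3 (0.0574). PDK1 was at 55.8, 52.1 and 49.7 in 9-D (0.18, adjusted p = 0.0598), and the other 3 switches were not called in either clone.

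Of the 12 hypoxia-induced members tested in H9, 2 were higher and 4 lower in 9-1, and 3 were higher and 2 lower in 9-D. Over all genes the shares were 12.8% and 13.5% in 9-1 and 11.5% and 12% in 9-D, so counts of 2 among 12 lie near them. VEGFA was at 48.9, 48.5 and 50.6 CPM in wild type, at 70.3, 69 and 62.6 in 9-1 and at 66.2, 66.1 and 70.8 in 9-D. EGLN3, which like EGLN1 hydroxylates HIF-alpha, was at 22.2, 23.9 and 23.5 CPM in wild type, at 35.1, 35.5 and 34.1 in 9-1 and at 31.7, 34.7 and 30.1 in 9-D. Both genes were higher in all 6 clone libraries than in any wild-type one. VEGFA rose by 0.45 ± 0.07 and 0.46 ± 0.07 (SE, edgeR adjusted p = 2.21e-06 and 1.78e-06) and EGLN3 by 0.59 ± 0.08 and 0.47 ± 0.08 (4.06e-07 and 2.62e-05). NDRG1 was at 2.66, 3.25 and 2.22 CPM in wild type and at 3.91, 3.76 and 4.62 in 9-D, a rise of 0.60 ± 0.20 (edgeR adjusted p = 0.0269). This call was lost with DESeq2 (adjusted p = 0.0592) and without wild-type replicate 1 or 3 or clone replicate 3 (0.0719, 0.145 and 0.105), and in 9-1 NDRG1 was at 3.57, 2.68 and 3.05 CPM and not called.

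ADM and EGLN1 went the other way. ADM was at 76.2, 83.3 and 81.2 CPM in H9 wild type, at 48.5, 54.7 and 50.4 in 9-1 and at 60.8, 59 and 61.2 in 9-D, with log2 fold changes of -0.64 ± 0.07 and -0.41 ± 0.06 (SE, edgeR adjusted p = 9.09e-10 and 7.42e-06). EGLN1 was at 20.6, 17.3 and 16.3 CPM in wild type, at 12.4, 13.2 and 14.5 in 9-1 and at 12.4, 14.8 and 10.1 in 9-D, with log2 fold changes of -0.44 ± 0.12 and -0.54 ± 0.12 (edgeR adjusted p = 0.00416 and 0.000517). Leaving out wild-type replicate 1 ended the EGLN1 call in 9-1 (adjusted p = 0.0547). In both genes every clone library lay below every wild-type library, as in H1. P4HA1 was at 46.5, 48.8 and 47.1 CPM in wild type and at 33.8, 34.6 and 37 in 9-1, a log2 fold change of -0.43 ± 0.07 (edgeR adjusted p = 1.84e-05), and at 43.2, 43.8 and 38.2 in 9-D, where it was not called. BNIP3, at 28.1 ± 2.36 CPM in H9 wild type (SD, n = 3), was at 22.4 ± 0.79 in 9-1 (log2 fold change -0.32, adjusted p = 0.0055) and at 24.9 in 9-D, not called. DDIT4 was not called in either H9 clone.

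Members whose groups lay wholly apart numbered 12 above and 8 below in 9-1, against 20.0% of all genes in each direction, and 14 above and 7 below in 9-D, against 17.4% and 18.3%. Of all genes, 12.8% were called higher and 13.5% lower in 9-1, and 11.5% and 12% in 9-D. Of 10 pluripotency markers, 7 were higher and 1 lower in 9-1, and 7 were higher in 9-D. Their summed levels were 8830 to 9160 CPM in wild type, 9850 to 10100 in 9-1 and 10100 to 10200 in 9-D. Of the 12 fibroblast and feeder markers, 9 were tested, of which 5 were lower and 2 higher in 9-1 and 3 were lower and 2 higher in 9-D (sums of 1280 to 1330 CPM in wild type, 1090 to 1200 in 9-1 and 1220 to 1350 in 9-D). DCN was at 0 counts in wild type and 9-D, and LUM in 9-1, but other markers of this list were well above 0. COL1A1 was at 154 to 178 CPM in wild type and at 218 to 272 over the clone libraries. FBLN1 was at 350 to 367 and 277 to 353, and THY1 at 443 to 503 and 373 to 440. Of 4 endoderm markers tested 3 were higher in each (sums of 8.66 to 10.5 CPM in wild type, 10.9 to 14.9 in 9-1 and 10.1 to 15.5 in 9-D). In each clone, 1 of 5 neuroectoderm markers and 1 of 3 trophoblast and amnion markers tested were lower. Of 3 mesoderm markers tested 1 was higher in each, and 0 of 5 primitive streak and mesendoderm markers were called. Their part in the result was not tested.

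**Figure D3:**
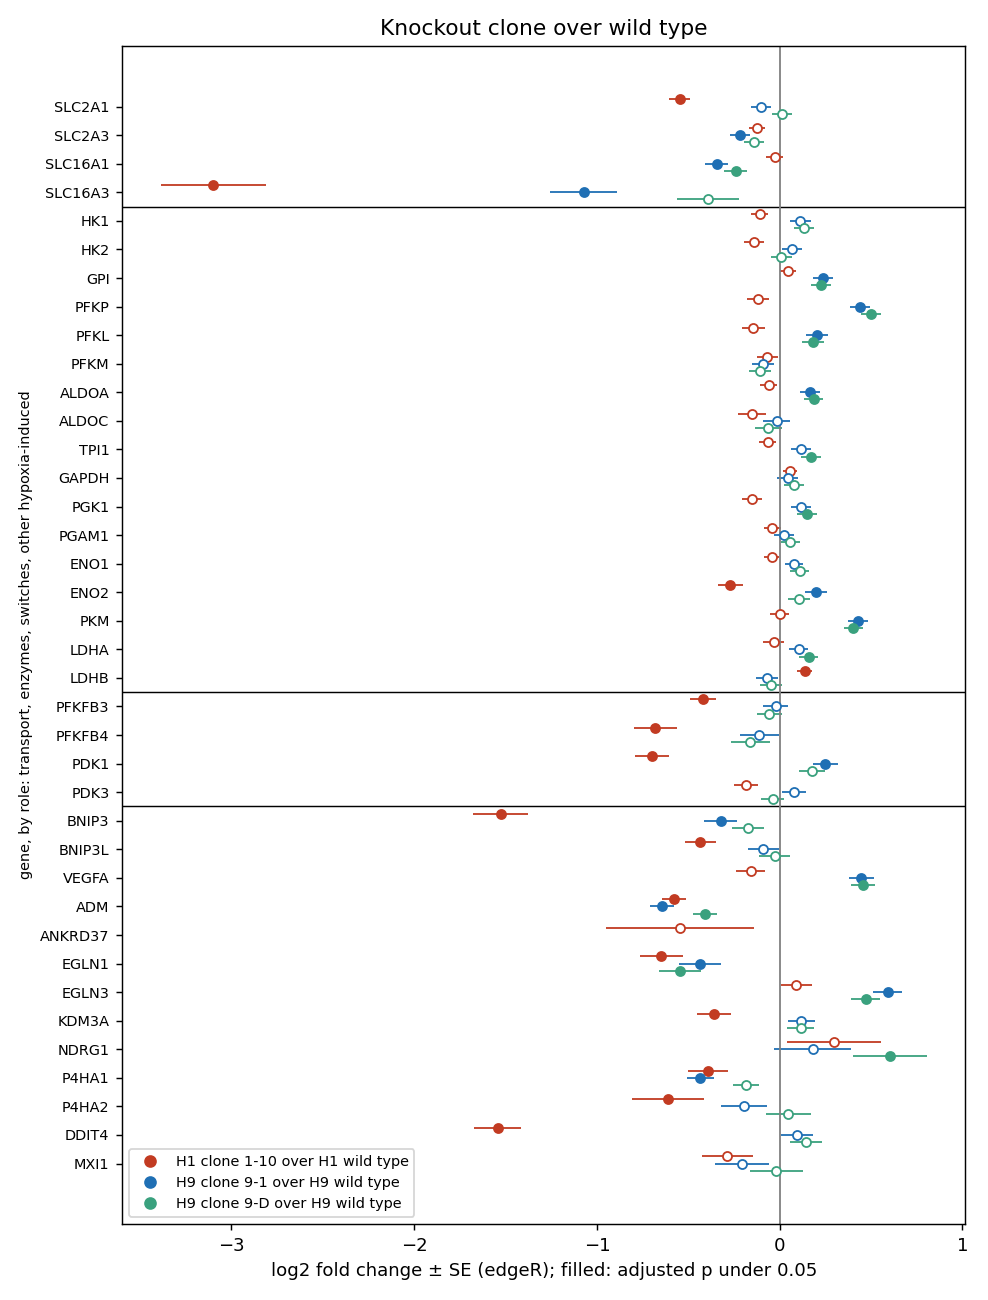
Log2 fold change ± SE of each tested member (rows, by role) in H1 clone 1-10 (red), H9 clone 9-1 (blue) and H9 clone 9-D (green) over wild type of the same line; filled points have an edgeR adjusted p under 0.05. The enzymes lie near 0 in H1 and on or right of 0 for most in H9, SLC16A3, BNIP3 and DDIT4 lie farthest left in H1, and ADM and EGLN1 are left of 0 in all 3.

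The clones 9-D and 9-1 were compared directly in the same model, and 0 of 37 members were called, against 0.305% of all genes. Groups wholly apart were seen for 6 members above (5.99% of all genes) and for 0 below (5.74%). At an unadjusted p under 0.05 there were 5 members (SLC2A1, SLC16A3, ADM, NDRG1 and P4HA1), and DESeq2 called 0. The largest difference was at SLC16A3, 0.68 ± 0.19 higher in 9-D (SE, log2 scale, edgeR adjusted p = 0.193). It passed the test without 9-D replicate 1, the lowest of its group (log2 difference 0.84, adjusted p = 0.0414). For the 17 enzymes the 95% intervals of the difference all lay between -0.21 and 0.17.

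The knockout effect differed between the lines for 19 members in a model of all 15 libraries, in which the mean effect in the H9 clones minus the effect in H1 was tested. Of 15802 genes, 9.21% were called in either direction. For 18 members the effect was higher in H9 and for 1 lower, against 5.21% and 4% of all genes. By role, 2 transporters, 7 of 17 enzymes, 3 of 4 switches and 6 of 14 hypoxia-induced members were higher, and SLC16A1 was the lower one. The largest differences of log2 fold changes were those of SLC16A3 (2.37 ± 0.35, SE, edgeR adjusted p = 3.67e-06), DDIT4 (1.66 ± 0.17, 9.38e-10), BNIP3 (1.27 ± 0.19, 3.27e-06) and PDK1 (0.91 ± 0.11, 9.55e-08). For SLC16A3 and BNIP3 the mean log2 change was negative in both lines (-0.70 in H9 and -2.89 in H1 for SLC16A3, -0.24 and -1.44 for BNIP3), while for PDK1 it was 0.22 in H9 and -0.67 in H1. VEGFA, PFKP and PFKFB4 followed, with differences of 0.61, 0.59 and 0.54.

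For ADM the difference between lines was 0.05 ± 0.09 and for EGLN1 0.15 ± 0.17, and neither passed the test, with 95% intervals of -0.12 to 0.22 for ADM and -0.18 to 0.49 for EGLN1. Without H1 wild-type replicate 3, the count of higher glycolytic members was 7 in place of 12: HK1, ALDOA, PGK1, PFKFB3 and PFKFB4 were lost (edgeR adjusted p = 0.0589, 0.108, 0.0845, 0.059 and 0.195), and so were BNIP3L and KDM3A (0.209 and 0.0816). HK1, ALDOA, PFKFB4 and BNIP3L were also lost without other single libraries (adjusted p = 0.0522 to 0.127). SLC16A1 was lost without H1 wild-type replicate 2, clone 1-10 replicate 3 or H9 wild-type replicate 2 (adjusted p = 0.0505, 0.0629 and 0.0924). The labels do not say whether the lines were sequenced together, and a batch that acted differently on the groups of the 2 lines cannot be told apart from a line difference.

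**Figure D4:**
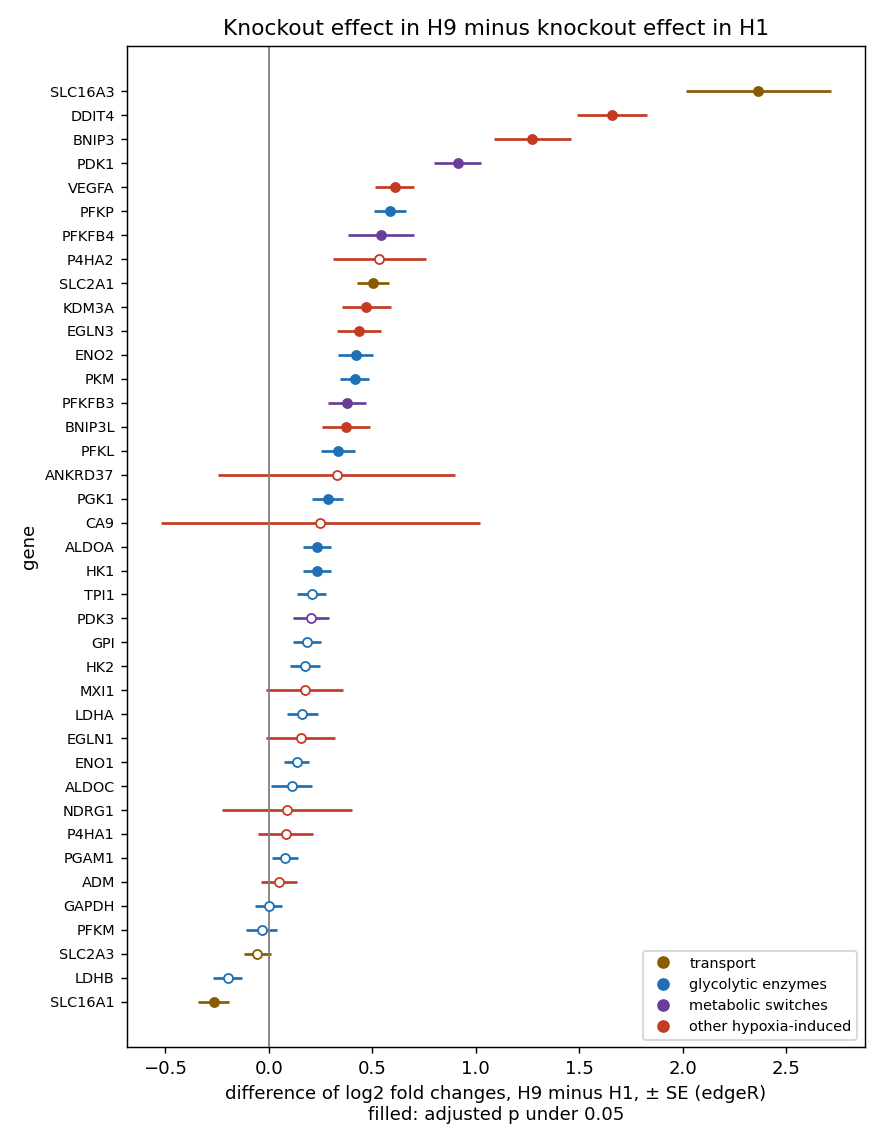
Difference of log2 fold changes, H9 minus H1, ± SE for each of the 39 members, sorted and coloured by role; filled points have an edgeR adjusted p under 0.05. Most points lie right of 0, and SLC16A3, DDIT4, BNIP3 and PDK1 stand apart from the rest.

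A score for each library was taken as the mean over members of log2 CPM minus the wild-type mean of its line, over 25 glycolytic members and, apart from them, over the hypoxia-induced members tested (13 in H1, 12 in H9). The scores describe chosen genes and carry no test. In H1 clone 1-10 the glycolytic score was -0.31, -0.22 and -0.28 and the hypoxia-induced score -0.58, -0.49 and -0.45. In H1 wild type they were -0.05, -0.07 and 0.12, and -0.05, -0.19 and 0.23, so the clone lay below the lowest wild-type library in both. The same mean over all genes tested was -0.056, -0.041 and -0.057 in the clone libraries. The glycolytic score weighs all its members alike. SLC16A3 among them had a log2 fold change of -3.10 in H1, while the 17 enzymes had a median of -0.07. In H9 the glycolytic score was 0.03 ± 0.02 (SD, n = 3) in 9-1 and 0.06 ± 0.02 in 9-D, with wild-type libraries from -0.012 to 0.015. All 3 libraries of 9-D lay above that range (0.03 to 0.075), and those of 9-1 overlapped it (0.004 to 0.046). The hypoxia-induced score was -0.08 ± 0.02 in 9-1 and 0.04 ± 0.06 in 9-D, with wild-type libraries from -0.07 to 0.08.

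**Figure D5:**
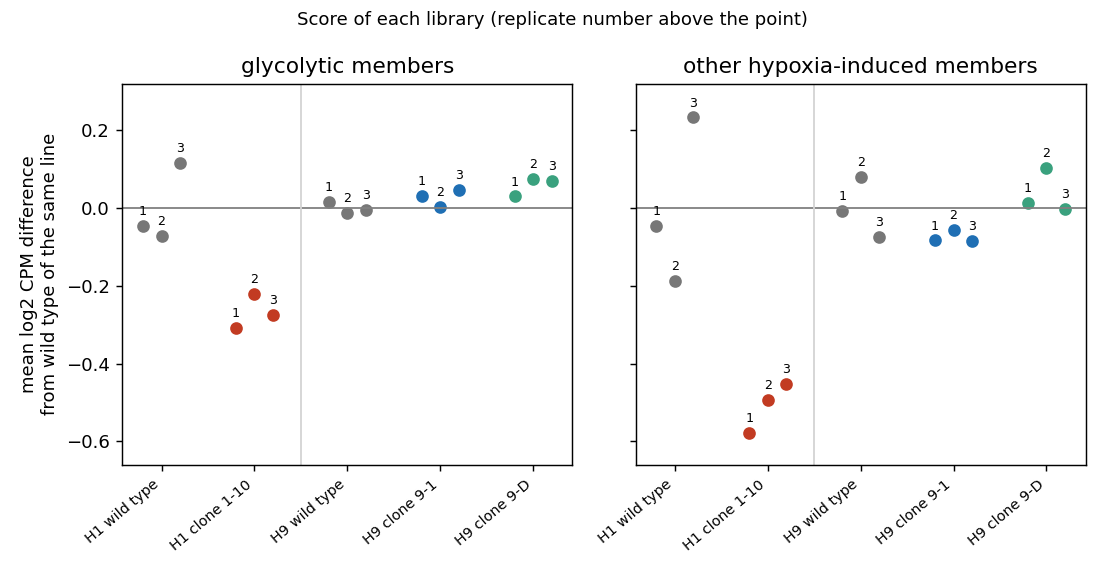
Mean log2 CPM difference from wild type of the same line for each library, over the glycolytic members (left) and the other hypoxia-induced members (right), with replicate numbers above the points. All 3 libraries of H1 clone 1-10 lie below every other library, and H1 wild-type replicate 3 is the highest in both panels.

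The separate H1 set had 1 library a group, so it carries no test, and values past 1.5-fold are only counted. In the heterozygous clone 1-5, 0 of 38 members were higher and 1 was lower than in the single wild type, against 3.33% and 3.82% of 14406 genes. The lower one was SLC16A3, with 28 counts in wild type and 18 in clone 1-5. In clone 1-10, 1 member was higher (NDRG1, 20 and 43 counts) and 3 were lower (SLC16A3, 28 and 18 counts; DDIT4, 641 and 397; ANKRD37, 13 and 9), against 2.44% and 4.95%. The 13 hypoxia-induced members had a median log2 ratio of -0.22 in clone 1-5, with 11 below 0, and of -0.13 in clone 1-10, with 8 below 0, beside 0.00 over all genes. The glycolytic members had medians of 0.01 and 0.02.

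Ratios in this set can be set beside those of the replicated H1 libraries, without a test. BNIP3 was 1.40-fold lower in clone 1-10 in the single set and 2.88-fold lower in the replicated one, and DDIT4 was 1.91-fold and 2.92-fold lower. The same 2 folds were 1.44 and 1.63 for PDK1, 1.28 and 1.49 for ADM, and 1.10 and 1.46 for SLC2A1, each smaller in the single set. For SLC16A3 they were 1.84 and 8.57. EGLN1, PFKFB3, P4HA1 and P4HA2 were called lower in the replicated set but were not lower in the single clone 1-10 library. Their log2 ratios there were 0.08, 0.05, 0.03 and 0.17. BNIP3 was at 34.3 CPM in the single wild type, 27.6 in clone 1-5 and 24.5 in clone 1-10. PDK1 was at 39.1, 26.4 and 27.1, and ADM at 97.4, 72.2 and 76. DDIT4 was at 56.9, 40.7 and 29.9, and EGLN1 at 17.8, 16.6 and 18.7. SLC2A1, which fell in the replicated set, was at 334, 321 and 303. The single wild type thus had BNIP3, SLC16A3 (2.49 CPM), DDIT4, PDK1, EGLN1 and SLC2A1 below all 3 replicated H1 wild-type libraries. Among the other members called lower in the replicated set, BNIP3L (38.5 CPM), PFKFB3 (56.7), PFKFB4 (21.2), P4HA1 (26.5) and P4HA2 (3.82) were below them too. ENO2 (94.7) and KDM3A (43.2) lay within the range of those libraries, and ADM lay above it. These sets were scaled separately and were not compared by a test.

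Of 8 genes that control HIF, 7 were tested. HIF1A, the main HIF-alpha, was at 222, 209 and 220 CPM in H1 wild type and at 234, 211 and 232 in clone 1-10 (log2 fold change 0.06, not called). It was at 182, 171 and 187 CPM in H9 wild type, at 228, 227 and 213 in 9-1 and at 216, 212 and 206 in 9-D. All H9 clone libraries lay above wild type, and HIF1A rose by 0.30 ± 0.06 and 0.23 ± 0.06 (SE, edgeR adjusted p = 7.49e-05 and 0.00227). The difference between lines was 0.21 ± 0.07 (adjusted p = 0.0593, and 0.0343 with DESeq2). HIF3A, a family member that can restrain the others, fell by 0.34 in H1 (edgeR adjusted p = 0.0115), a call lost without clone 1-10 replicate 2 (0.0547). EPAS1, a second HIF-alpha, ARNT, the partner, and VHL, which marks HIF-alpha for destruction, did not pass the test in H1. Their log2 fold changes in H1 were -0.02, -0.12 and 0.00. In each H9 clone HIF1A was the only 1 of the 7 called. The log2 fold changes of the 7 ran from -0.194 to 0.305 in 9-1 and from -0.231 to 0.403 in 9-D. HIF3A had the lowest value in 9-D (edgeR adjusted p = 0.0511) and was called there without H9 wild-type replicate 2 (0.0296).

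A wider list held 39 further hypoxia-induced genes. In H1, 13 of 38 tested were lower and 0 higher by edgeR (0 also by DESeq2 and at an unadjusted p under 0.05), with a median log2 fold change of -0.20, against 7.25% of all genes lower and 5.01% higher. In 9-1, 8 were higher and 6 lower, against 12.8% and 13.5% of all genes, and in 9-D 7 were higher and 7 lower, against 11.5% and 12%. The largest calls in H1 were PPFIA4, a liprin scaffold gene (17 ± 5.52 to 6.57 ± 0.35 CPM, SD, n = 3), BHLHE40, a repressor of the clock and hypoxia pathways (7.53 ± 1.65 to 4.1 ± 0.38), STC1, the hormone stanniocalcin (56.9 ± 6.25 to 38.8 ± 1.21), and INSIG2 of sterol control (11.3 ± 2.49 to 7.88 ± 0.56), the last lost without wild-type replicate 3 (adjusted p = 0.197) or clone 1-10 replicate 3 (0.0587). BHLHE40 went the other way in H9, from 3.77 ± 0.58 CPM to 8.73 ± 0.39 in 9-1 and 7.42 ± 0.40 in 9-D, and the difference between lines was 1.97 on the log2 scale (edgeR adjusted p = 6.07e-09). BHLHE41 and STC2 also rose in both H9 clones, by 1.10 and 0.79 and by 0.67 and 0.68 on the log2 scale. LOX fell in 9-1 by 0.67 and in 9-D by 0.63 (edgeR adjusted p = 0.0281 and 0.0424). Both LOX calls were lost with DESeq2 (adjusted p = 0.0597 and 0.0914) and without any one of 4 single libraries, wild-type replicates 2 and 3 and clone replicates 1 and 3 (up to 0.107 in 9-1 and 0.234 in 9-D). HEY1 fell in 9-D by 0.93, a call lost without clone replicate 2 (0.0807).

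Of other genes of glycolysis and pyruvate use, 3 of 30 tested were higher and 3 lower in H1 (5.01% and 7.25% of all genes). Of 28 tested in H9, 7 were higher and 5 lower in 9-1 (12.8% and 13.5% of all genes), and 6 were higher and 3 lower in 9-D (11.5% and 12%), the lower ones being near the share over all genes. PKLR, which encodes the pyruvate kinase made in liver and erythrocytes, held 84 counts over the H1 wild-type libraries and 0 over clone 1-10, at least 28.5-fold lower against a limit of 3 counts over the group. LDHD, which handles D-lactate, rose by 0.49 in H1 and by 0.71 and 0.73 in 9-1 and 9-D (edgeR adjusted p = 0.00782, 2.7e-06 and 1.93e-06), the H1 call being lost without wild-type replicate 1 (0.0517). PDP1, a phosphatase that undoes the action of PDK1, rose by 0.40, 0.74 and 0.57 (adjusted p = 0.00204, 4.74e-08 and 8.44e-06). MPC1, a subunit of the mitochondrial pyruvate carrier, rose by 0.36 in H1 and by 0.72 in 9-1 and 0.69 in 9-D (adjusted p = 0.0373, 4.14e-05 and 8.38e-05). The MPC1 call in H1 was lost with DESeq2 (0.0996) and without any one of 4 libraries, wild-type 1 or 3 or clone 1 or 2 (0.09 to 0.17). SLC2A4 (GLUT4), the insulin-responsive glucose transporter, fell by 0.54, 0.68 and 0.50 (adjusted p = 0.0372, 0.000131 and 0.00398). The SLC2A4 call in H1 was lost with DESeq2 (0.112) and on leaving out any one of 4 libraries, wild-type 1 or 3 or clone 1 or 2 (0.0606 to 0.232), and in 9-D without clone replicate 1 (0.0513).

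The promoter table of RefSeq GRCh38.p14 held 34 of the 39 members, without SLC2A3, SLC16A1, BNIP3L, VEGFA and NDRG1. The core ACGTG or GCGTG, on either strand, was in 61.8% of the members' windows of 250 bases (21 of 34) and in 43.2% of all 35116 windows. It was in 9 of 13 members called lower in H1 (69.2%), in 11 of 19 not called there (57.9%), and in 3 of 6 called higher in both H9 clones (50%). GGAGGA, letters of the kind ZNF263 is known to bind, was in 13 of 34 members on either strand (38.2%), beside 31.8% of all windows, in 6 of 13 members called lower in H1 (46.2%) and in 5 of 19 not called (26.3%). SLC16A3 and PDK1, 2 of the larger falls in H1, had neither string in this window, and the BNIP3 and EGLN1 windows had both. Members were searched in the first window entered for each symbol, while the shares over all windows count every entry, so these sets are unlike. These are matches of letters and carry no test.

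Over the 15 libraries, with each group's mean taken out, BNIP3 varied most like KDM3A (Pearson r = 0.909) and LDHA (0.907) among the members. Outside all lists it was most like WWP1 (0.893), ZBTB21 (0.878) and LOC103344931 (0.864). The libraries share their groups' processing, and the values lean on H1 wild-type replicate 3: without it r was 0.672, 0.627, 0.837, 0.669 and 0.479 in the same order. These correlations are descriptions of 15 libraries.

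In all, 29 of the 39 members were called in at least 1 of the 5 comparisons and 10 in none. Of all genes, 12.3% were called in H1, 26.3% in 9-1 and 23.5% in 9-D. Between the H9 clones 0.305% were called, and in the difference between lines 9.21%. The share of all genes called in at least 1 comparison was not counted. The 10 members called in none were the enzymes HK2, PFKM, ALDOC, GAPDH, PGAM1 and ENO1, the kinase PDK3, and CA9, ANKRD37 and MXI1. Of these, 9 were tested over wild type, with log2 fold changes from -0.54 to 0.11. CA9 was tested only in the difference between lines. Higher in both H9 clones were 7 members (GPI, PFKP, PFKL, ALDOA, PKM, VEGFA and EGLN3). Of all genes, 12.8% were higher in 9-1 and 11.5% in 9-D, and the share higher in both was not counted. ENO2 and PDK1 were called lower in H1 clone 1-10 and higher in H9 clone 9-1, with the losses of those calls given above. The authors' deposited table for H1 had 1 glycolytic member higher and 7 lower and 5 hypoxia-induced members lower at an adjusted p under 0.05. Their deposited table for both H9 clones together had 12 and 3 glycolytic members and 2 and 4 hypoxia-induced members higher and lower. No share over all genes was counted for these deposited tables.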

How the data were processed

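Polyadenylated RNA was counted in 18 libraries of H1 and H9. Per the submitters' processing notes, reads were handled with STAR, featureCounts, DESeq2 and the hg19 build; versions and options are not given in the sources used here. The authors deposited 3 tables of raw read counts per gene symbol, which were analysed as deposited, and, per the file headers, DESeq2 comparison tables with a log2 fold change and an adjusted p-value per gene, quoted as theirs. Library totals were 9.66 to 21 M counts. Replicate libraries differed by more than sampling noise in all 15 pairs (chi-square per gene 1.8 to 5.61).

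Counts were tested with edgeR 4.0.16 (R 4.3.3): TMM scaling, filterByExpr, quasi-likelihood F test, Benjamini-Hochberg adjustment over all genes tested, called at an adjusted p under 0.05. H1 was fitted with 2 groups, H9 with 3, and the difference between lines with all 5. The SE is the log2 fold change over the root of F, and intervals are at 95%. CPM were TMM-scaled within a line, with a prior count of 2 for log2 values, so levels of H1 and H9 were not compared. The single libraries were compared by ratio (1.5-fold, mean count of at least 10) without a test. Tests ran on simulated counts first. Alternatives were RLE scaling, DESeq2 1.42.0, no filter, a replicate block, and each library left out.

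Every member called in at least 1 comparison is named, with values per library for those with the largest changes. The members and gene lists were chosen with earlier results of these data known. Promoters are the 250 bases before the gene start in RefSeq GRCh38.p14, and no position in them was compared with hg19.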

Additional observations from a re-analysis of the deposited data

Results flagged for a closer look

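For 19 members the knockout effect differed between the lines by a test of the difference itself, the mean log2 fold change of the H9 clones minus that of H1 clone 1-10 in a model of all 15 replicated libraries (edgeR adjusted p under 0.05). Among transporters the differences were 0.50 for SLC2A1, -0.27 for SLC16A1 and 2.37 for SLC16A3. Among enzymes they were 0.23 for HK1, 0.59 for PFKP, 0.33 for PFKL, 0.23 for ALDOA, 0.28 for PGK1, 0.42 for ENO2 and 0.42 for PKM. Among switches they were 0.38 for PFKFB3, 0.54 for PFKFB4 and 0.91 for PDK1. Among the other hypoxia-induced members they were 1.27 for BNIP3, 0.37 for BNIP3L, 0.61 for VEGFA, 0.44 for EGLN3, 0.47 for KDM3A and 1.66 for DDIT4.

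Some of these rest on single libraries. HK1 was also lost without clone 1-10 replicate 3 or H9 wild-type replicate 1 (edgeR adjusted p = 0.0576 and 0.0851). ALDOA was lost without clone 1-10 replicate 1 or 3 or H9 wild-type replicate 2 (0.0868, 0.0566 and 0.0565). PFKFB4 was lost without clone 1-10 replicate 3 or H9 wild-type replicate 3 (0.0654 and 0.0949). BNIP3L was lost with DESeq2 (0.0507) and without any one of 6 further libraries, which were clone 1-10 replicates 1 and 2, H9 wild-type replicates 1 and 3, 9-1 replicate 1 and 9-D replicate 2 (0.0522, 0.127, 0.0823, 0.115, 0.0555 and 0.0717). Groups of 3 libraries were too small to test single libraries as outliers.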

How the results depend on the processing

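Under every alternative run, no called member turned its direction. RLE scaling changed no count of members called. In H1, the 6 lower glycolytic members became 12 with a replicate block and 16 without both libraries numbered 2, and the 8 lower hypoxia-induced members became 5 with DESeq2. In 9-D, the 1 lower glycolytic member became 2 with DESeq2 and 2 with the block. In the difference between lines, the 1 lower glycolytic member became 2 without the filter on low counts and 2 with the block. In the single libraries, the 1 lower member of clone 1-5 became 2 when scaled by library total, and a fold of 2 left 0 lower in clone 1-5 and 0 higher and 0 lower in clone 1-10. The cause of these changes was not tested.

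Leaving out 1 library at a time gave ranges of 0 to 1 higher (1 with all) and 5 to 11 lower glycolytic members (6) and 5 to 8 lower hypoxia-induced members (8) in H1. It gave 4 to 8 higher glycolytic members in 9-1 (7), 4 to 8 higher (8) and 1 to 2 lower (1) in 9-D, and 0 to 1 higher in 9-D over 9-1 (0). For the difference between lines it gave 7 to 13 higher (12) and 0 to 2 lower (1).

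The replicate numbers were not shown to pair the samples. Same-numbered libraries deviated together with r of 0.036 to 0.119 in H1 and of -0.031 to 0.063 in H9, and not every library correlated best with its own number. Over single genes, the block brought 13 values past the threshold and ended no call. Means of 3 libraries and low counts (CA9, ANKRD37, NDRG1, P4HA2, SLC16A3) limit precision.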
